A study of Mus musculus with 56 samples.

Results

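The forestomachs of mice given the highest dose of chrysene (D3) were compared directly with those of mice given the lowest dose (D1), without the vehicle arrays. Members were chosen by tissue and dose in the sample titles, which gave 5 D1 and 5 D3 arrays, 10 of the 56 arrays in the series and 10 of its 19 forestomach arrays. All were adult male Muta™Mouse, a transgenic strain that carries a bacterial reporter for scoring mutations, about 14 weeks old. D1 mice (numbers 6 to 10) received 17.5 mg and D3 mice (numbers 16 to 20) 150 mg chrysene per kg body weight per day in olive oil, by gavage on each of 28 days. Each mouse contributed 1 forestomach, frozen 72 h after its last dose, and 1 array. RNA from a tissue section was labelled with Cy5 and hybridised beside a universal mouse reference RNA, a pool of cell lines, labelled with Cy3. The values are log2 ratios of sample over reference, so 0 is the level of the pool and a difference of 1 is a doubling. The comparison asks whether forestomach expression depended on the dose among dosed mice.

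Chrysene is a polycyclic aromatic hydrocarbon. Compounds of this class can bind the aryl hydrocarbon receptor (AhR), a transcription factor that with its partner ARNT switches on cytochrome P450 enzymes such as Cyp1a1 and Cyp1b1, which oxidise the hydrocarbon to reactive metabolites. DNA damage by such metabolites can activate p53, and electrophilic stress can activate NRF2, each with a known set of target genes. The forestomach of rodents is the upper chamber of the stomach, lined by a keratinised stratified squamous epithelium over smooth muscle, and it joins the glandular stomach, which makes acid and digestive enzymes. It meets gavaged compounds first.

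The forestomach arrays differed in brightness by slide more than by dose. On the 6 arrays of slides 1 and 2, which share a scan day, 25.7% to 34.7% of spots had a Cy5 signal well above background, whereas on the 4 arrays of slide 3 the share was 40.4% to 51.7%. Slide 1 held mouse 7 of D1 and mice 16 and 17 of D3, slide 2 held mice 8 and 9 of D1 and mouse 18 of D3, and slide 3 held mice 6 and 10 of D1 and mice 19 and 20 of D3. The median correlation over probes was 0.925 between arrays of the same slide and 0.861 between arrays of different slides. It was 0.856 within D1, 0.881 within D3 and 0.895 between D1 and D3. All 5 D1 arrays lay in column 2 of their slides, 4 D3 arrays in column 4 and the array of mouse 20 in column 3, so the effects of array column and of dose cannot be told apart.

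The samples carried the markers of forestomach epithelium. The basal keratins Krt5 and Krt14 had log2 ratios of 2.51 to 4.68 and 3.17 to 5.03 over the 10 mice, and Krt13 and Krt4, keratins of the layers above, 4.55 to 6.71 and 6.25 to 8.90. Loricrin (Lor), a protein of the cornified envelope, ranged from 6.60 to 9.67, and Trp63, the master regulator of squamous epithelia, from 4.62 to 6.77. All 6 were well above background on every array and overlapped fully between the doses. Their D3 minus D1 differences were 0.00, −0.00, −0.04, −0.29, −0.14 and 0.29, each smaller than its standard error (SE) of 0.38 to 0.59. The smooth muscle myosin Myh11 was also high in all mice (5.03 to 7.27).

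Markers of glandular stomach, exocrine pancreas and liver were high in some of the samples, and their levels differed among mice of the same dose. Chia1, a chitinase of gastric chief cells, had log2 ratios of 1.67, 0.21, 8.41, 0.05 and 8.84 in D1 mice 6 to 10 and of 0.35, 0.40, 0.06, 9.14 and 1.99 in D3 mice 16 to 20. Cblif, gastric intrinsic factor, was high in the same mice, at 1.09, −0.25, 8.17, −0.02 and 8.41 in D1 and 0.16, 0.40, 0.09, 8.87 and 1.41 in D3. Mice 8 and 10 of D1 and mouse 19 of D3 were far above the others. The D3 minus D1 difference of Chia1 was −1.45 with an SE of 2.25. It was 0.16, −4.17 and 0.31 within slides 1, 2 and 3, and −3.14 to −0.20 with each mouse left out. For Atp4b, a subunit of the gastric proton pump, the difference was −0.35 with an SE of 1.79. Pancreatic amylase (Amy2a5) was at 7.24 and 4.45 in D3 mice 19 and 20 and at 2.29 in D1 mouse 10, against −0.20 to 0.53 in the other 7 mice. The carboxypeptidase Cpa1 was at 5.44 and 1.87 in D3 mice 19 and 20 and at 0.40 or less elsewhere.

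As whole lists, 17 measured glandular stomach markers had a median D3 minus D1 difference of −0.37, with 3 above and 14 below 0, and −0.02 when arrays were only median-centred. Their mean, set to 0 at the D1 average, ranged from −2.22 to 3.1 in D1 and from −2.04 to 3.91 in D3. Without mouse 10 of D1 the median was 0.23, and without mouse 19 of D3 it was −1.50. The 20 pancreatic acinar markers had a median of 0.58 (16 above 0, 4 below), which was 2.30 within slide 3, −0.04 within slide 1, −0.28 within slide 2 and −0.08 without mouse 19. Their mean ranged from −0.60 to 0.89 in D1 and from −0.61 to 4.32 in D3. Of the 17 and 20 markers, 0 passed at an unadjusted p of 0.05 in either direction. The part of these tissues in the results that follow was not tested beyond the fit with the glandular mean as a covariate. In bulk RNA, fewer cells of a type and less RNA per cell cannot be told apart.

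**Figure D1:**
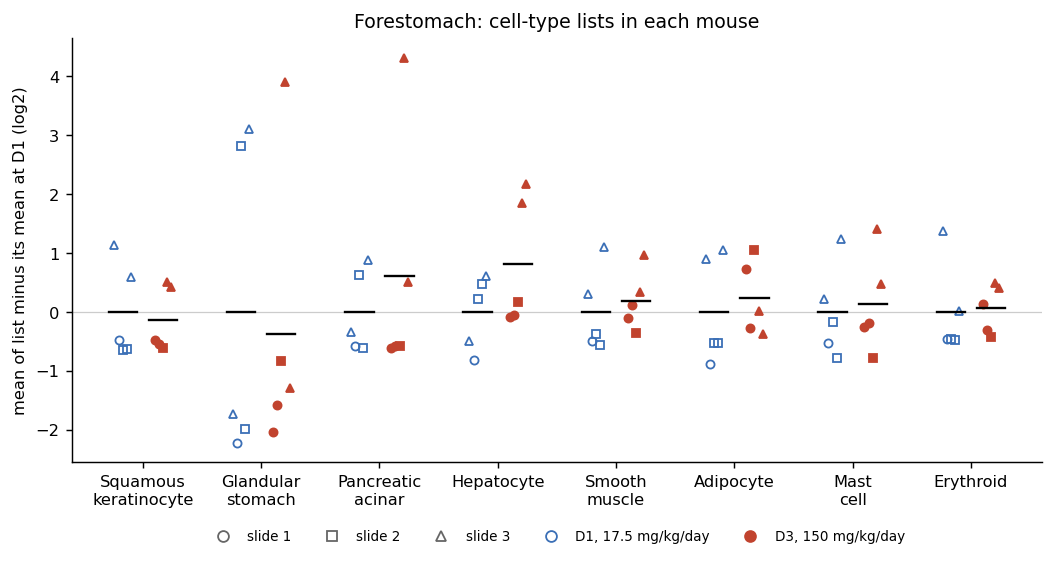
Mean log2 ratio of 8 cell-type lists in each D1 (open, blue) and D3 (filled, red) mouse, set to 0 at the D1 average, with the slide as the symbol and group means as bars. Glandular stomach and pancreatic acinar means split the mice within each dose, with mouse 19 of D3 highest on both, at 3.91 and 4.32.

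No gene met the limits of the test between D3 and D1. Of 27527 probes tested, 0 (0%) had a limma adjusted p of at most 0.05 with at least a 1.5-fold difference, and the smallest adjusted p was 0.9999. With p at or under 0.05 before adjustment, 274 probes were higher in D3 (0.995%) and 209 lower (0.759%), together 483 (1.75%). If no probe differed, 5% would be expected to pass that limit, so the share found lay below it. The reason was not tested. With the p limit aside, 210 probes were at least 1.5-fold higher in D3 (0.763%) and 71 at least 1.5-fold lower (0.258%). All 5 D3 mice lay above all 5 D1 mice for 54 probes (0.196%) and below them for 26 (0.0945%). With 1 probe per gene, 163 of 14086 genes were higher with p at or under 0.05 (1.16%) and 91 lower (0.646%). These gene shares are the background against which the gene lists are read. The lists were chosen with earlier results of these data known, so a share above this background describes a list and does not test it. Every forestomach difference between D3 and D1 named from here on had an adjusted p of 0.9999 or more by limma, so genes are given with their standard error and 95% interval, neither of which allows for the number of probes tested.

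The data bounded the difference for most probes. The median D3 minus D1 difference was 0.00 on the log2 scale, the middle 50% of probes lay between −0.10 and 0.10, and the extremes were −1.45 and 2.51. The 95% confidence interval reached 0.35 to either side of the estimate for the median probe and 0.74 at the 90th percentile. It lay wholly within 1.5-fold for 19035 probes (69.2%) and within 2-fold for 25068 (91.1%). For the remaining probes the interval reached beyond the limit, so a difference of that size was not excluded at this precision, which rests on 5 mice a group. When arrays were centred on their median without LOWESS, the median over all probes moved to 0.21. The move was not the same for all genes. The median of the proteasome genes went from 0.00 to 0.41 and that of oxidative phosphorylation from −0.03 to 0.40. Skeletal muscle markers went from −0.02 to 0.00. No single value therefore stands for no difference on that scale.

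**Figure D2:**
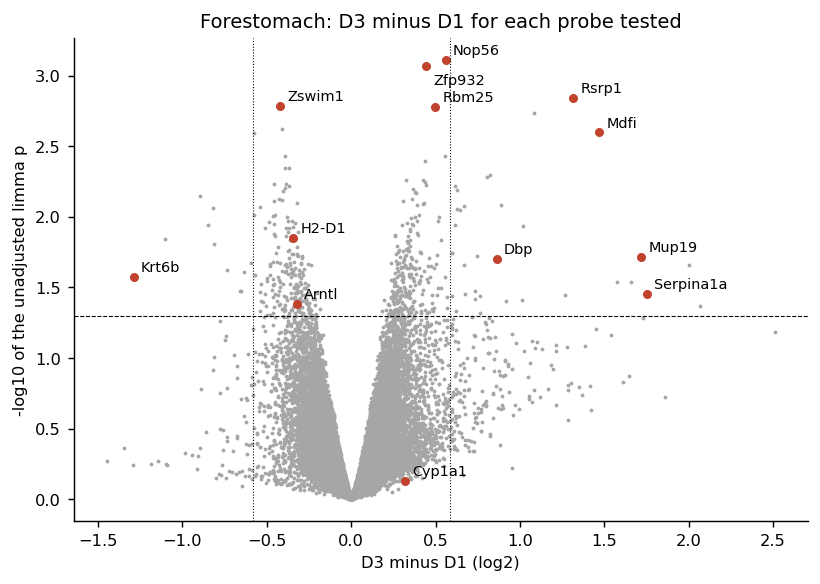
D3 minus D1 difference (log2) of each of the 27527 forestomach probes against −log10 of its unadjusted limma p, with dotted lines at 1.5-fold and a dashed line at p of 0.05. Nop56 and Zfp932 lie highest, at differences of 0.56 and 0.44, and Cyp1a1 lies near the bottom at 0.32.

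Cyp1a1, the P450 that AhR induces most strongly, did not separate the doses, although 1 mouse of each dose had a high level. Its log2 ratios were 0.39, 0.06, 3.58, 0.44 and 0.19 in D1 and 4.77, 0.42, 0.11, 0.11 and 0.83 in D3. Mouse 8 of D1 and mouse 16 of D3 stood far above the rest, and the other 4 mice of each dose overlapped. The probe was well above background on 1 D1 and 2 D3 arrays. The difference was 0.32 with an SE of 0.96 and a 95% interval of −1.80 to 2.43. It was 2.54 within slide 1, −1.90 within slide 2 and 0.18 within slide 3, 0.98 without mouse 8 and −0.56 without mouse 16. For scale, the vehicle mice, which took no part in the comparison, ranged from 0.01 to 0.53. The same mice 8 and 16 had Cyp1a1 ratios of 0.30 and 0.78 in lung and of 0.28 and 0.30 in liver.

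Cyp1b1, a P450 of many extrahepatic tissues, was highest in the same pair of mice. It measured −0.84, −0.45, 0.32, −0.26 and −0.62 in D1 and 0.77, −0.25, −0.52, −1.07 and −0.67 in D3. The groups overlapped, with a difference of 0.02 and an interval of −0.70 to 0.74 (SE 0.32). Ahrr, the repressor that AhR induces against itself, measured 0.14, −0.06, −0.05, −0.04 and 0.32 in D1 and 0.27, 0.18, 0.04, −0.05 and 0.55 in D3, also overlapping, with a difference of 0.14 and an interval of −0.16 to 0.43. It was well above background on 2 and 4 arrays, and its difference was 0.05 to 0.20 with each mouse left out. Tiparp, an AhR-induced ADP-ribosyltransferase, differed by −0.05 (SE 0.20). Its highest ratio, 0.36, was again in mouse 16, and its interval of −0.49 to 0.39 lies within 1.5-fold in either direction. Cyp1a2, the mainly hepatic P450 of the family, was not well above background on any of the 10 arrays and was not tested.

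Promoter sequence of these genes is shown because the AhR and ARNT complex binds the core GCGTG. Each line gives the 250 bases before the transcription start from RefSeq (GRCm38.p6), 5′ to 3′ on the gene's strand, with GCGTG or its reverse complement CACGC in capitals. The Cyp1a1 window is chr9:57697363-57697612 (plus strand), that of Cyp1b1 is chr17:79715062-79715311 (minus) and that of Ahrr is chr13:74292332-74292581 (minus).
Cyp1a1: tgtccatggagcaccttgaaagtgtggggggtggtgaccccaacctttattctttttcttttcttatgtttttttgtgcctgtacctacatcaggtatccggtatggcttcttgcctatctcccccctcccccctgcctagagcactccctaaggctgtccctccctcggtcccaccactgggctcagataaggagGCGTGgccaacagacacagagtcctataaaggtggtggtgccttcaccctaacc
Cyp1b1: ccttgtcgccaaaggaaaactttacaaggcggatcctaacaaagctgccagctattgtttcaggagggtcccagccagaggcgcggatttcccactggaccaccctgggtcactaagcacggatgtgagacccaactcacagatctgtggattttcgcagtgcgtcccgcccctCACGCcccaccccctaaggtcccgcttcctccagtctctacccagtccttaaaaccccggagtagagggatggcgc
Ahrr: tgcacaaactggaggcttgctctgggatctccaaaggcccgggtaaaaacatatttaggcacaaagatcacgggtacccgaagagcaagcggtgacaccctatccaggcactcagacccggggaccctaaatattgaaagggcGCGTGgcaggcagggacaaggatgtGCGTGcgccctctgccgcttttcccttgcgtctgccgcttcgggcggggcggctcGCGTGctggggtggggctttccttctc
Ahrr held 3 copies, Cyp1a1 and Cyp1b1 1 each, the latter on the opposite strand, and so did Tiparp, while none was found in the window of Nqo1. The core is short and 28.2% of the 32851 mouse windows of this length held it on either strand, so a match is a description and not a site.

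Across the AhR battery there was no shared direction. Of 18 genes measured of 20 listed, 0 passed at an unadjusted p of 0.05, 8 were above 0 and 10 below, and the median difference was −0.03, against 0.31 when arrays were only median-centred. Selenbp1, a selenium-binding protein, differed by 0.26 (SE 0.14, 95% interval −0.05 to 0.57). The list mean was 0.40 above the D1 average in mouse 8 and 0.28 above it in mouse 16, and between −0.25 and 0.10 in the other 8 mice. The list contains Cyp1a1, and the mean of its other 17 genes was 0.27 in mouse 8 and 0.07 in mouse 16, against 0.16 in mouse 19. Nqo1, a quinone reductase under both AhR and NRF2, measured 2.28, 2.19, 2.95, 1.44 and 2.34 in D1 and 2.65, 1.80, 0.84, 3.42 and 2.31 in D3, with a difference of −0.03 that had either sign across the normalizations (0.02 by loess of the scanner values). D3 covered a wider range than D1 and enclosed it.

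The lists of the damage and oxidative stress responses had median differences near 0 on the LOWESS scale. Cdkn1a, the p53-induced cell cycle inhibitor p21, measured 0.69, 1.03, 0.76, 0.90 and 0.07 in D1 and 0.72, 0.59, 0.99, 0.47 and −0.27 in D3, a difference of −0.19 with an interval of −0.73 to 0.35 (0.22 under median centring). Ccng1, cyclin G1, a sensitive p53 target, measured −1.20, −0.27, −0.44, −0.88 and −0.68 in D1 and −0.17, −0.43, −0.38, −0.39 and −1.23 in D3, a difference of 0.18 with an interval of −0.32 to 0.67. For Ccng1 the difference was 0.05 to 0.35 with each mouse left out, and −0.03, 0.28 and 0.13 within slides 1, 2 and 3. Cdkn1a and Ccng1 both overlapped fully between the doses. Of 28 p53 targets, 0 passed at an unadjusted p of 0.05 and the median was −0.05 (0.28 under median centring). Sesn2 and Sesn1, stress-induced inhibitors of mTORC1, had its smallest p values and opposite signs (−0.45, SE 0.25, and 0.27, SE 0.16). They were at −0.23 without mouse 19 and at 0.14 without mouse 8, and at −0.017 and 0.61 under median centring.

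Of 35 NRF2 targets, 1 was higher at an unadjusted p of 0.05 and 0 lower, with a median of −0.02 (0.40 under median centring). It was Osgin1, an oxidative stress-induced growth inhibitor, which measured 0.83, 0.42, 0.31, 0.47 and 1.02 in D1 and 0.96, 1.01, 0.94, 0.73 and 1.24 in D3 (0.36, SE 0.16, 95% interval 0.02 to 0.71), the groups overlapping through mice 6 and 10 of D1. Of 43 DNA repair genes, 1 was higher and 1 lower, with a median of −0.00 (0.31 under median centring). Mgmt, which removes alkyl groups from guanine, measured −0.86, −0.40, −0.61, −0.82 and −0.91 in D1 and −0.25, −0.76, −0.46, −0.16 and −0.24 in D3, a difference of 0.35 (SE 0.15, 95% interval 0.02 to 0.67). Mice 16, 19 and 20 of D3 were above all D1 mice, and the difference was −0.11, 0.26 and 0.69 within slides 1, 2 and 3. Ercc1, a subunit of the nuclease that cuts 5′ of bulky DNA adducts, measured 0.19, 0.19, −0.30, 0.20 and −0.59 in D1 and −0.28, −0.34, −0.34, −0.83 and −0.85 in D3 (−0.46, SE 0.19, 95% interval −0.89 to −0.03, and −0.026 under median centring), overlapping through mice 8 and 10 of D1. These repair shares of 1 in 43 are close to the gene background of 1.16% and 0.646%.

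Of 13 output genes of the circadian clock, 10 had a higher mean ratio in D3 than in D1 and 3 a lower one, none past the adjusted test. The circadian clock is a loop in which CLOCK or NPAS2 with BMAL1 (Arntl) drives genes with an E-box such as Dbp, Tef, Nr1d1 and the Per and Cry genes, so that these peak opposite to Arntl. Dbp, a PAR bZIP transcription factor with one of the strongest rhythms in most tissues, measured −2.44, −2.42, −2.11, −1.45 and −1.39 in D1 and −0.55, −1.66, −0.34, −1.39 and −1.57 in D3. Mice 16 and 18 of D3 were the highest, and the other 3 lay at or about the level of the upper D1 mice. The difference was 0.86 with an SE of 0.32 and a 95% interval of 0.16 to 1.56, and the fold was 1.82. It was 1.31, 1.44 and 0.44 within slides 1, 2 and 3, between 0.67 and 1.00 with each mouse left out in turn, and 0.78 on the other Dbp probe. The vehicle mice ranged from −2.56 to −1.34.

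A further 3 output genes had an unadjusted p below 0.05. Usp2, a deubiquitinase under clock control, measured 1.51, 1.64, 0.84, 1.11 and 2.01 in D1 and 2.06, 1.89, 1.82, 1.88 and 2.43 in D3, a difference of 0.60 (SE 0.21, 95% interval 0.12 to 1.07). The D3 mice lay above 4 of the D1 mice, with mouse 10 of D1 among them. Tef, a relative of Dbp, measured −0.83, −0.63, −0.57, −0.44 and −0.29 in D1 and −0.17, −0.21, 0.24, −0.53 and −0.20 in D3, a difference of 0.38 (SE 0.15, 95% interval 0.04 to 0.72). Of the D3 mice 4 lay above D1 for Tef and mouse 19 lay within it. Cry2, a repressor of CLOCK and BMAL1, measured 0.05, 0.16, 0.15, −0.15 and 0.29 in D1 and 0.36, 0.49, 0.52, 0.23 and 0.36 in D3, a difference of 0.29 (SE 0.11, 95% interval 0.05 to 0.54), with 1 D3 mouse inside the D1 range.

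The rest of the loop was mixed. Nr1d2 differed by 0.40 (SE 0.22, 95% interval −0.10 to 0.89, and 0.24 without mouse 16) and Per1 by 0.35 (SE 0.23, 95% interval −0.15 to 0.86, 0.16 without mouse 6 and −0.16 within slide 2), while Per2, Per3 and Nr1d1 differed by 0.07, −0.09 and 0.07. Of 13 clock output genes measured, 4 were higher at an unadjusted p of 0.05 (30.8%, against 1.16% of genes) and 0 lower, 10 were above 0 and 3 below, and the median was 0.28 (0.15 without mouse 8 of D1, 0.18 without mouse 20 of D3, and 0.32 under median centring). The clock output list was chosen with earlier results of these data known, so its count is a description. The list mean was −0.16, −0.04, 0.00, 0.09 and 0.10 around the D1 average in D1 and 0.37, 0.14, 0.46, 0.15 and 0.12 above it in D3. Each D3 mouse thus lay above each D1 mouse by this mean, in 3 cases by little. Arntl, which peaks in antiphase, measured 0.48, 0.60, 0.34, 0.21 and 0.53 in D1 and −0.19, 0.28, −0.13, 0.18 and 0.40 in D3, a difference of −0.32 (SE 0.14, 95% interval −0.63 to −0.01, and 0.02 under median centring). Npas2, Clock and Nfil3, a repressor of the same targets as Dbp, differed by 0.01, 0.03 and −0.28 (SE 0.19, 0.23 and 0.23). Nfil3 was at −0.97, −0.18 and 0.10 within slides 1, 2 and 3, and at −0.45 to −0.12 with each mouse left out. The hour at which each mouse was dissected is not given in the sources used here, so hour and dose cannot be told apart.

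The Tef promoters are shown for the E-box, CACGTG, which reads the same on both strands. RefSeq (GRCm38.p6) gave a pair of starts, with the 250 bases before them at chr15:81802423-81802672 and chr15:81811164-81811413, both on the plus strand, and each held 1 E-box, in capitals below.
Tef, first start: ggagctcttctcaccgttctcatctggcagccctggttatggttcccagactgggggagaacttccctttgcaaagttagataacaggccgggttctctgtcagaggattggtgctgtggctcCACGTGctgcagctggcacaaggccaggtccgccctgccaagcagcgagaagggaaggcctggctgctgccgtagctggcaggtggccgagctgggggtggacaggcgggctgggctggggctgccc
Tef, second start: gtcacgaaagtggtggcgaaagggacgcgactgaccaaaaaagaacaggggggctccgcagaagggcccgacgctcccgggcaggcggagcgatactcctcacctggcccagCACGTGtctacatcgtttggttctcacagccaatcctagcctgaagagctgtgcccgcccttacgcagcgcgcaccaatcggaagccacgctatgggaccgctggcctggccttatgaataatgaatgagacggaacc
CACGTG was in 6.02% of the 32851 windows. Of the other clock genes searched, Per1 held 1 in 1 of its windows, and Dbp, Nr1d1, Nr1d2, Usp2 and Cry2 held none there, which says only that these letters are not in this stretch.

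**Figure D3:**
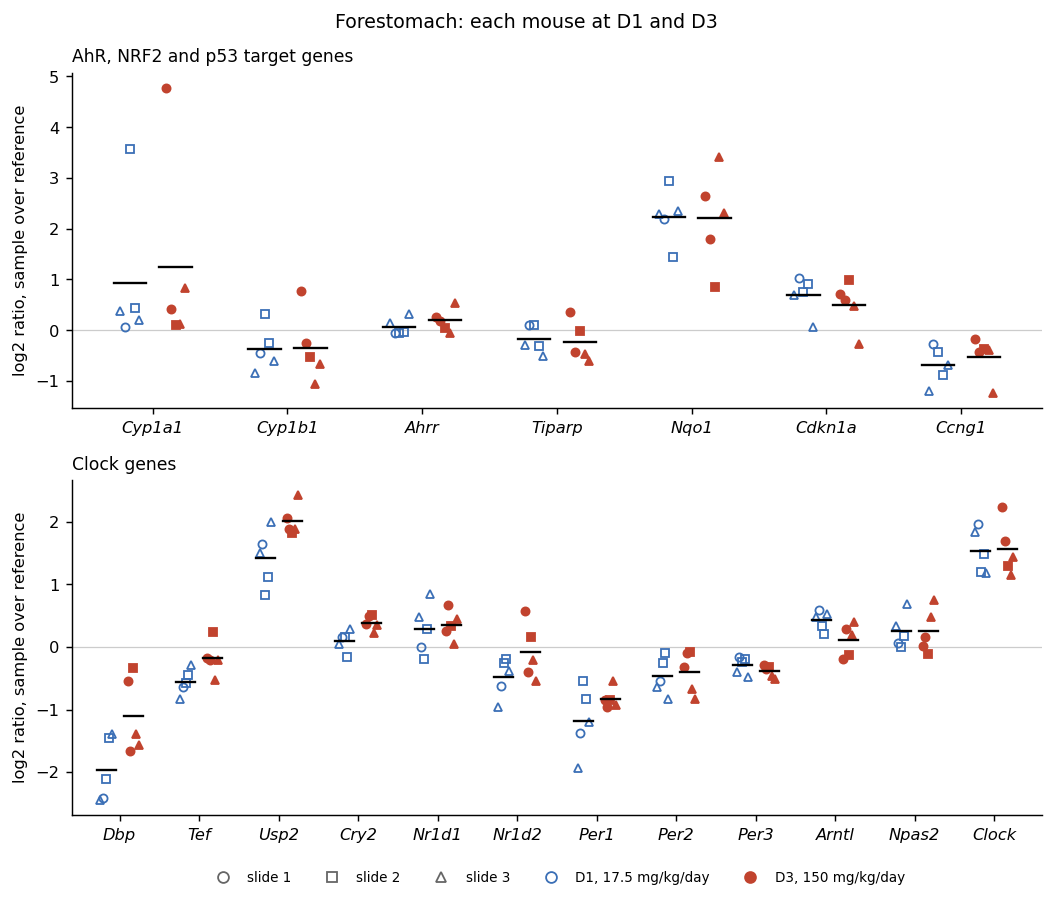
Log2 ratio of sample over reference in each D1 (open, blue) and D3 (filled, red) mouse for AhR, NRF2 and p53 target genes (top) and clock genes (bottom), with the slide as the symbol and group means as bars. Cyp1a1 was high in 1 mouse of each dose, 3.58 and 4.77, and Dbp had a D3 minus D1 difference of 0.86.

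No gene with a symbol met the rule for naming the largest differences, which asked for full separation of the groups and 1.5-fold together. One probe without a gene name here did, A_55_P2140195, which was well above background in all 10 mice. It measured 0.10, 0.94, 0.86, 0.46 and 1.26 in D1 and 2.31, 2.26, 1.82, 1.38 and 1.28 in D3, a difference of 1.08 (SE 0.26, 95% interval 0.50 to 1.67). The lowest D3 mouse lay just above the highest D1 mouse, and the vehicle mice spanned 0.68 to 1.59. The genes in this and the next paragraph were chosen after their values were seen, unless a gene list is named with them. By the probe taken for each gene, 35 of the 14086 genes had no overlap between the doses, with differences of 0.17 to 0.56 in size. Of these, 26 were higher and 9 lower in D3. Over all probes the shares without overlap were 0.196% and 0.0945%. With 252 ways to split 10 mice 5 against 5, full separation can also arise without a dose difference. Nop56, a core protein of box C/D small nucleolar ribonucleoproteins, had the smallest p of all probes. It measured −1.42, −1.43, −1.52, −1.77 and −1.71 in D1 and −1.26, −1.01, −0.95, −1.08 and −0.76 in D3, a difference of 0.56 (SE 0.12, 95% interval 0.29 to 0.83). Its other probe gave −0.03. Zfp932, a zinc finger protein, measured −0.18, −0.01, −0.11, −0.14 and −0.00 in D1 and 0.57, 0.26, 0.36, 0.30 and 0.28 in D3 (0.44, SE 0.10, 95% interval 0.23 to 0.66). Zswim1 was lower by the same criterion, at 0.12, 0.29, 0.01, 0.16 and 0.09 in D1 and −0.17, −0.35, −0.47, −0.16 and −0.28 in D3 (−0.42, SE 0.10, 95% interval −0.65 to −0.20). It was well above background on 4 of 10 arrays and at 0.07 under median centring.

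Rsrp1, Mdfi and Trf had differences above 1.5-fold with 1 mouse overlapping. Rsrp1, a nuclear arginine and serine rich protein, measured −3.08, −2.93, −1.80, −3.05 and −2.35 in D1 and −1.79, −0.96, −1.21, −0.69 and −2.00 in D3. Mouse 8 of D1 lay among the D3 mice, and otherwise the groups were apart. The difference was 1.32 (SE 0.31, 95% interval 0.63 to 2.00), and it was 1.56, 1.22 and 1.37 within slides 1, 2 and 3. Mdfi, which holds MyoD-family factors inactive, measured 2.65, 2.38, 1.54, 1.49 and 2.73 in D1 and 4.25, 3.91, 2.72, 4.31 and 2.95 in D3, with 1 D3 mouse inside the D1 range (1.47, SE 0.38, 95% interval 0.64 to 2.30). Trf, the iron carrier transferrin, measured 3.20, 2.87, 3.13, 3.22 and 3.91 in D1 and 3.94, 3.58, 4.31, 3.87 and 4.63 in D3 (0.80, SE 0.23, 95% interval 0.29 to 1.31), again with overlap from 1 D1 mouse. The vehicle mice spanned −3.27 to −1.64, 0.71 to 4.16 and 1.92 to 4.39 for these 3 genes. That left 3 D3 mice above all vehicle mice for Rsrp1, 2 for Mdfi and 1 for Trf.

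Many factors of pre-mRNA splicing and nuclear speckles had higher mean ratios in D3. Of 40 such genes measured, 8 were higher at an unadjusted p of 0.05 (20.0%, against 1.16% of genes) and 0 lower, 29 were above 0 and 11 below, and the median difference was 0.12 (0.46 under median centring). The list was compiled with earlier results of these data known, so its count is a description. The median was 0.14, 0.13 and 0.15 within slides 1, 2 and 3, and from 0.07 (without mouse 20 of D3 or mouse 6 of D1) to 0.17 with each mouse left out. Rbm25, a regulator of alternative splice sites, measured −0.70, −0.75, −0.81, −0.69 and −0.51 in D1 and −0.29, −0.20, 0.00, −0.49 and 0.00 in D3, without overlap (0.50, SE 0.12, 95% interval 0.23 to 0.76). Clk4, a kinase of SR splicing factors, measured −1.12, −1.13, −0.56, −0.88 and −0.03 in D1 and −0.21, −0.14, −0.10, −0.22 and 0.16 in D3 (0.64, SE 0.20, 95% interval 0.20 to 1.09), overlapping through mouse 10 alone. Ccnl2, cyclin L2 of the speckles, measured −1.21, −1.25, −1.13, −1.41 and −0.50 in D1 and −0.85, −0.44, −0.41, −0.55 and −0.11 in D3 (0.63, SE 0.19, 95% interval 0.22 to 1.04), but its other probe gave −0.02. Brd7, a bromodomain protein of chromatin that the list also holds, differed by 0.35 without overlap (SE 0.12, 95% interval 0.09 to 0.60). The core SR protein Srsf1 and the ribonucleoproteins Hnrnpu and Hnrnpc had differences of −0.00, 0.02 and −0.03.

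Of 49 genes of the nucleolus and ribosome assembly, 3 were higher at an unadjusted p of 0.05 (6.12%) and 0 lower, with a median of 0.04 (0.42 under median centring). Nop56 is 1 of these 3. This list too was chosen with earlier results of these data known, so its count is a description. Trub2, a pseudouridine synthase, measured 0.01, −0.33, −0.24, −0.02 and 0.10 in D1 and 0.31, 0.26, 0.49, 0.19 and 0.19 in D3 (0.38, SE 0.11, 95% interval 0.13 to 0.64), while its other probe gave −0.09. Noc2l, a nucleolar protein that also inhibits histone acetylation, measured −0.38, −0.52, −0.69, −0.57 and −0.31 in D1 and −0.37, 0.05, −0.11, −0.42 and 0.12 in D3 (0.35, SE 0.14, 95% interval 0.05 to 0.65), with mice 16 and 19 of D3 inside the D1 range. The 47 cytosolic ribosomal protein genes had 0 in either direction and a median of 0.07, with 36 above 0 (0.50 under median centring). Zcchc7, a component of the nuclear RNA surveillance complex that is not on either list, was chosen after its values were seen. It had no overlap, at −1.04, −0.82, −0.49, −0.86 and −0.37 in D1 and −0.35, −0.14, −0.14, −0.32 and 0.12 in D3 (0.55, SE 0.15, 95% interval 0.22 to 0.88).

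**Figure D4:**
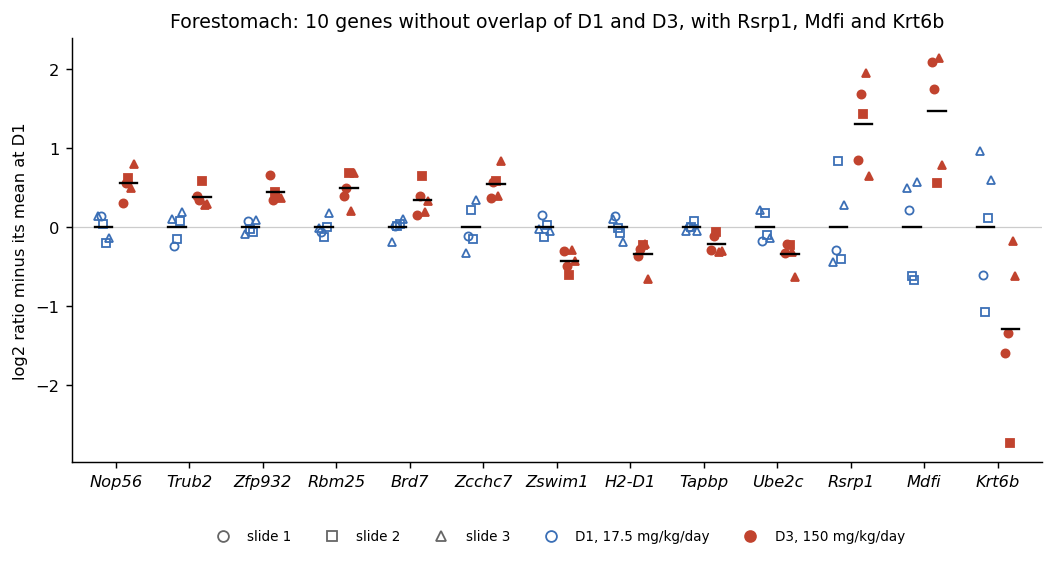
Log2 ratio minus its D1 mean in each D1 (open, blue) and D3 (filled, red) mouse for 10 genes without overlap between the doses and for Rsrp1, Mdfi and Krt6b, with the slide as the symbol and group means as bars. The 10 had differences of at most 0.56 in size, whereas Rsrp1 and Mdfi differed by 1.32 and 1.47 with 1 mouse overlapping, and the 4 negative ones of the 10 were at 0.07 to 0.21 under median centring, where the median of all probes was 0.21.

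Krt6b, a keratin of wounded and hyperproliferative squamous epithelium, had a lower mean ratio in D3, without passing the adjusted test. It measured 8.65, 7.09, 6.61, 7.80 and 8.29 in D1 and 6.10, 6.35, 4.96, 7.51 and 7.08 in D3. The other 3 D3 mice lay below all D1 mice and mice 19 and 20 lay among them. The difference was −1.29 (SE 0.50, 95% interval −2.40 to −0.18), with values of −0.86, −2.25 and −1.18 within slides 1, 2 and 3, −0.46 under median centring and −0.74 on its other probe. Krt6a, a near-identical neighbour whose signal may not be told apart from Krt6b, differed by −0.61 (SE 0.71). Krt16, a partner of these keratins, differed by −0.89 (SE 0.60, 95% interval −2.21 to 0.43, −0.495 without mouse 10 and −0.38 under median centring), its groups overlapping. Of the 20 keratinocyte genes, 1 was lower at an unadjusted p of 0.05 and 0 higher, and the median was −0.02 (0.34 under median centring). This median ranged from −0.19 to 0.29 with each mouse left out, and was 0.00, 0.25 and −0.38 within slides 1, 2 and 3. The keratinocyte mean was 1.14 and 0.60 above the D1 average in mice 6 and 10 and 0.51 and 0.43 above it in mice 19 and 20, all on slide 3, and −0.64 to −0.47 in the other 6. Of 38 cornified envelope genes, 0 passed in either direction, with a median of −0.04 (0.30 under median centring). That median ranged from −0.18 to 0.25 with each mouse left out, and was 0.12, 0.24 and −0.39 within slides 1, 2 and 3. The smallest p of this list belonged to Sprr2h (−0.30, SE 0.15, 95% interval −0.63 to 0.03, well above background on 3 arrays).

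Genes of dividing cells leaned to lower ratios on the LOWESS scale. Of 39 proliferation genes, 29 were below 0 and 10 above, with a median of −0.15, but the median was 0.26 under median centring. It was −0.06 without mouse 9 or mouse 20, −0.08 without mouse 19, −0.24 without mouse 6, and −0.09, −0.04 and −0.23 within slides 1, 2 and 3. One was lower at an unadjusted p of 0.05 and 0 higher. It was Ube2c, the ubiquitin-conjugating enzyme of the anaphase-promoting complex, at −1.74, −2.14, −1.77, −2.06 and −2.09 in D1 and −2.28, −2.17, −2.19, −2.27 and −2.60 in D3 (−0.34, SE 0.13, 95% interval −0.62 to −0.06, and 0.08 under median centring). The 5 D3 mice lay just below the D1 mice. Top2a, DNA topoisomerase II of cycling cells, differed by −0.39 with overlap (SE 0.19, 95% interval −0.81 to 0.04, and 0.05 under median centring). Of the genes chosen after their values were seen, the class I antigen H2-D1 measured 0.60, 0.63, 0.48, 0.41 and 0.31 in D1 and 0.12, 0.21, 0.27, 0.28 and −0.16 in D3 (−0.34, SE 0.12, 95% interval −0.60 to −0.08, and 0.08 under median centring). H2 genes are near-identical, so this probe may read several. Tapbp, which loads peptide onto class I molecules, measured −0.27, −0.22, −0.22, −0.15 and −0.27 in D1 and −0.51, −0.33, −0.29, −0.54 and −0.53 in D3 (−0.21, SE 0.09, 95% interval −0.42 to −0.01, and 0.21 under median centring). Both had no overlap. Of 36 interferon response genes, 0 passed in either direction and the median was −0.05 (0.22 under median centring).

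In the extracellular matrix list of 39 genes, 2 were higher and 1 lower at an unadjusted p of 0.05 (5.13% higher), with a median of −0.05 (0.28 under median centring). Lamb1, a laminin chain of basement membranes, measured −1.14, −1.15, −1.05, −0.92 and −0.90 in D1 and −0.72, −0.48, −0.56, −0.99 and −0.74 in D3 (0.33, SE 0.12, 95% interval 0.07 to 0.60). The other 4 D3 mice lay above D1 and mouse 19 lay within it. Postn, the matricellular protein periostin, measured 3.50, 3.01, 1.76, 2.12 and 3.77 in D1 and 4.59, 4.25, 3.62, 2.80 and 3.97 in D3 (1.01, SE 0.43, 95% interval 0.06 to 1.96), and its difference was −0.25 within slide 3. Bgn, the proteoglycan biglycan, measured −1.58, −1.45, −1.06, −1.20 and −1.56 in D1 and −1.97, −1.47, −1.45, −2.48 and −1.78 in D3 (−0.46, SE 0.20, 95% interval −0.90 to −0.02), and its difference was −0.021 under median centring and −0.30 without mouse 19. Postn and Bgn overlapped between the doses.

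Transcripts of secreted liver proteins had the largest positive list median. Of 11 hepatocyte markers measured, 2 were higher at an unadjusted p of 0.05 (18.2%) and 0 lower, 9 were above 0, and the median was 0.91 (0.95 under median centring). It was 2.09 within slide 3, 0.56 within slide 1 and −0.03 within slide 2, and 0.59 without mouse 20 of D3. Apoa2, an apolipoprotein, measured −0.38, −0.15, 0.06, 0.94 and −0.37 in D1 and 0.29, 0.39, 0.50, 1.04 and 1.54 in D3 (0.73, SE 0.30, 95% interval 0.07 to 1.40). Serpina1a, alpha-1 antitrypsin, measured 0.97, 0.23, 1.13, 4.00 and 2.34 in D1 and 2.47, 2.59, 2.93, 4.35 and 5.11 in D3 (1.75, SE 0.73, 95% interval 0.14 to 3.36), and its near-identical gene copies may share the probe. Alb, serum albumin, measured 0.19, 0.18, 0.69, 1.60 and 0.97 in D1 and 0.63, 1.26, 0.80, 2.58 and 4.00 in D3 (1.13, SE 0.60, 95% interval −0.19 to 2.45). In all 3 genes mice 19 and 20 of D3 were the highest of that dose, mouse 9 was the highest of D1, and the groups overlapped. Mice 19 and 20 also had the highest pancreatic means of D3, and the part of either tissue was not tested.

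Of 18 complement genes, 16 were above 0 with a median of 0.32 (0.05 within slide 2, 0.17 without mouse 8, 0.18 without mouse 9 or mouse 20, 0.51 without mouse 10, and 0.51 under median centring), and 0 passed at an unadjusted p of 0.05. C8g had its smallest p (0.31, SE 0.19, 95% interval −0.11 to 0.74, well above background on 3 arrays), and the lectin Mbl2, made by the liver, was at 2.15 and 2.22 in mice 19 and 20 and at 0.70 or less in the other 8 mice. The remaining 10 response lists held 254 measured genes, of which 2 were higher and 2 lower, with list medians from −0.15 to 0.10. The remaining 12 cell-type lists held 108, of which 1 was higher and 1 lower, with medians from −0.16 to 0.23. These shares are near the background of 1.16% and 0.646%.

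**Figure D5:**
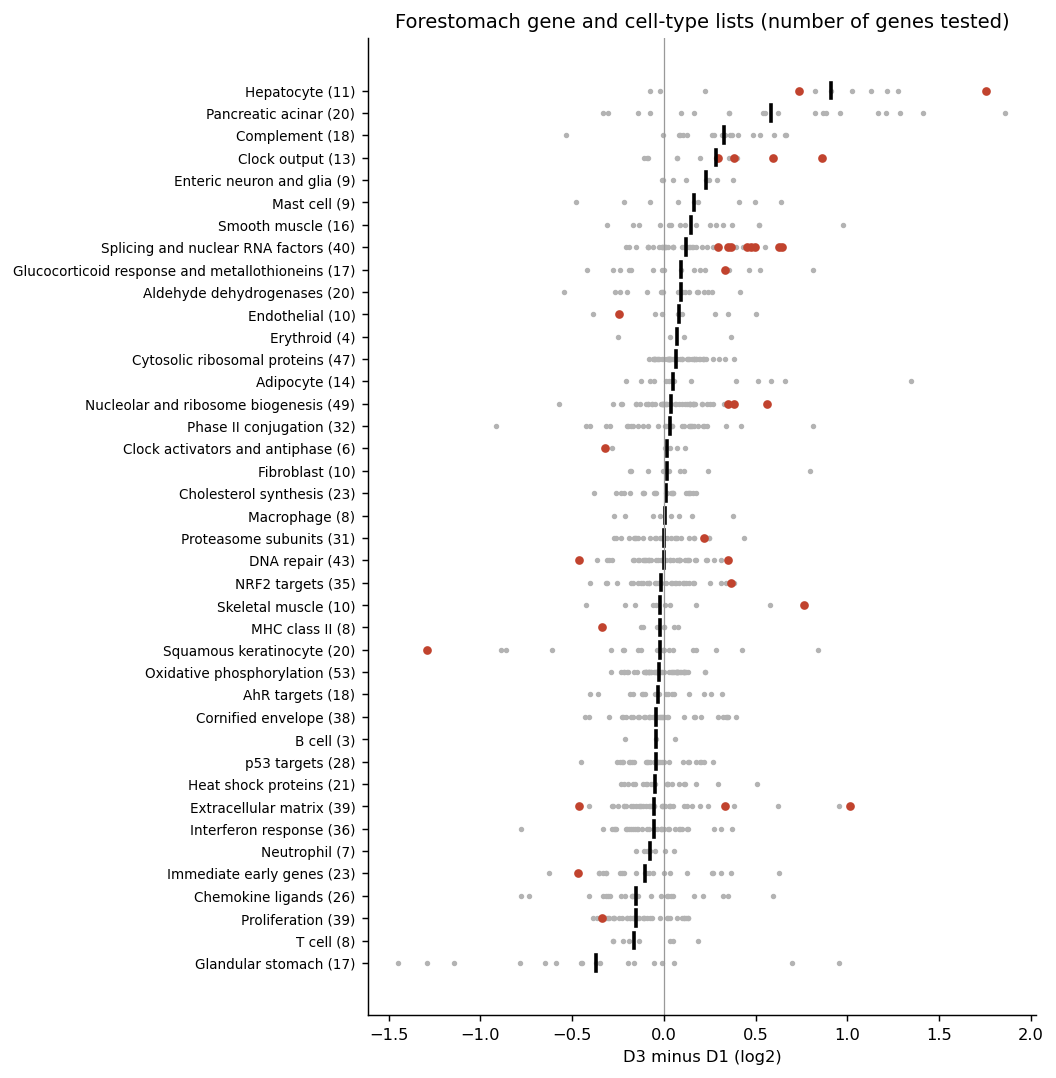
D3 minus D1 difference (log2) of each measured gene in 40 lists, ordered by the list median (black bar), with genes under the unadjusted limma p limit of 0.05 in red. Hepatocyte (0.91) and pancreatic acinar (0.58) had the highest medians and glandular stomach (−0.37) the lowest, the latter being −0.02 under median centring.

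The same contrast was made in lung and liver, each tissue with its own 5 D1 and 5 D3 arrays and, per the labels, the same mouse numbers. Lung had 1 probe of 31496 past both limits (0.00318%) and 2995 at an unadjusted p of 0.05 (9.51%), and liver 0 of 24769 (0%) and 899 (3.63%). The lung probe reads Pard3, a polarity protein, and it fell by 1.33 on the log2 scale in lung (SE 0.09, adjusted p = 0.000575 by limma). In forestomach the same probe differed by −0.85 (SE 0.28). The difference between tissues was tested as an interaction in 1 fit. Forestomach minus lung had 0 of 26324 probes past the limits (0%) and 908 at an unadjusted p of 0.05 (3.45%), with a smallest adjusted p of 0.9997, and forestomach minus liver 0 of 22521 (0%) and 390 (1.73%), with 0.9999. No forestomach difference named here is shown to be particular to that tissue.

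Side by side, 9 of 13 clock output genes and 3 of 5 activators and antiphase genes had the same sign in forestomach, lung and liver, against 29.5% of the 22304 probes tested in all 3 tissues. The 9 were above 0 and include Per1, which was at 0.00 in lung. The 3 were Arntl and Nfil3, below 0, and E2f6, above 0 at 0.07, 0.01 and 0.01. Dbp differed by 0.86 in forestomach, 0.90 in lung (SE 0.57) and 1.03 in liver (SE 0.67), Arntl by −0.32, −0.34 and −0.56, and Usp2 by 0.60, 0.72 and 0.20. Others differed in sign between tissues, such as Clock at 0.03, −0.26 and −0.07 and Bhlhe40, an E-box repressor, at −0.11, 0.36 and 0.17. Rsrp1 differed by 1.32 in forestomach, 1.04 in lung (SE 0.39) and 0.73 in liver (SE 0.35). In contrast, Rbm25 differed by 0.50 in forestomach and by 0.03 and 0.08 in lung and liver, and Trf by 0.80, −0.09 and 0.07. For Rbm25 forestomach minus lung was 0.46 (SE 0.13) and for Trf 0.89 (SE 0.26), neither past the adjusted test. Mdfi differed by 1.47, 0.70 and 0.05. Cyp1a1 differed by 0.32, 0.26 (SE 0.16) and 0.07 (SE 0.13), and Nqo1 by −0.03, 0.67 (SE 0.23) and 0.02 (SE 0.13). The tissues share their mice, so their values are not independent of each other.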

How the data were processed

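Members and gene lists were chosen with earlier results of these data known. Gene expression was measured on Agilent 2-colour arrays without dye swap, so differences between the dyes are part of each ratio. A dye difference that is equal on all arrays drops out of D3 minus D1. One that varies with signal need not. Per the study's methods, the authors made the deposited log2 ratios of Cy5 over Cy3 from median signals by LOWESS without background subtraction. The direction was checked against the scanner values, where loess of the median signals correlated with the table at 0.991 to 0.998 over the 10 arrays (slopes 0.981 to 0.996). Before loess the correlation was 0.343 to 0.485 on the 6 arrays of slides 1 and 2. On the 4 arrays of slide 3 it was 0.706 to 0.942. The normalization thus changed the values of the 6 fainter arrays most. The column medians were −0.039 to −0.029. The deposited scanner files give, per the file headers, median intensities of spots and local background from Feature Extraction 10.7.3.1, and flags of 0 or 1 for spots well above background or non-uniform (other values). The array design names the mouse build mm9, and the annotation used by the authors is not given in the sources used here.

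The 3671 control spots were left out and the 59305 others averaged to 55681 probes, of which 26413 (47.4%) were named through RefSeq accessions of the GRCm38.p6 table, giving 20018 genes. Other probes stay unnamed. Probes whose Cy5 signal was flagged as well above background by 3 or more of the 19 forestomach arrays were tested (27527) with limma 3.58.1 in R 4.3.3 (lmFit and eBayes, two-sided, 8 residual degrees of freedom), on the 5 D1 and 5 D3 arrays. Calls needed a 1.5-fold difference and a p of 0.05 or less after Benjamini-Hochberg adjustment over the 27527 probes. The study's methods name MAANOVA, whose Fs statistic was an alternative with 100 shufflings of residuals. Each gene was read from the probe with the highest mean Cy5 signal, and SE and 95% intervals are from limma. The limma contrast of D3 with D1 and the Fs test were tried on simulated forestomach values, with independent probes and no slide effect. The interaction, batch, covariate, array-weight and replicate-block fits were not. The p-values measure the spread between single mice.

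Named genes were those past 1.5-fold with full separation of the groups and a Cy5 signal above background in all mice of the higher group (0 genes with a symbol, and 1 unnamed probe), a fixed set of 18 AhR, NRF2, p53 and clock genes, and the 2 to 4 genes of each described list with the smallest p, of which 1 is not reported here. Lists were described by counts and medians, with no test. Tissues were compared with an interaction term over probes passing the filter in both. Mouse numbers name the same animals across tissues per the labels. Deviations from the group means of same-numbered samples correlated at −0.09 to 0.13 with lung and −0.06 to 0.24 with liver. Alternatives were other normalizations, filters, batch terms, array weights, the glandular mean as a covariate and each mouse left out. Arrays have no read depth, and the number of arrays limits precision.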

Additional observations from a re-analysis of the deposited data

Results flagged for a closer look

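Single mice stood apart from the other 4 of their dose in 16 of the 194 groups of forestomach values tested, by the gap of the extreme mouse divided by the range of its group (Dixon's ratio, limit 0.71 for 5 mice). Chance alone flags about 1 in 20 such groups. Cyp1a1 gave 3 of them, 1 through a list mean that contains it. Mouse 8 was far above the rest of D1 for Cyp1a1 (ratio 0.891, log2 3.58 against 0.06 to 0.44) and for the mean of the AhR list (0.752), and mouse 16 was far above the rest of D3 for Cyp1a1 (0.844, 4.77 against 0.11 to 0.83).

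Mouse 19 of D3 stood apart for Chia1 (0.788, 9.14 against 0.06 to 1.99), Cblif (0.85, 8.87 against 0.09 to 1.41), the glandular stomach mean (0.797) and the pancreatic acinar mean (0.773). It was also apart for the means of the phase II conjugation list (0.727, high) and of the nucleolar list (0.714, low), for Per1 (0.715, −0.54 against −0.96 to −0.84) and for Sesn2 (0.867, −1.03 against −0.02 to 0.14). Mouse 20 of D3 was low for Ccng1 (0.762, −1.23 against −0.43 to −0.17) and Ube2c (0.731, −2.60 against −2.28 to −2.17). In D1, mouse 10 was high for the extracellular matrix mean (0.742) and the enteric neuron and glia mean (0.717), and mouse 6 for the erythroid mean (0.734).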

How the results depend on the processing

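The count of genes past both limits was 0 in forestomach under each of 24 alternatives, the one without the fold limit included, with a smallest limma adjusted p of 0.657 (array weights). The count at an unadjusted p of 0.05, 483 in the main analysis, was 11 under median centring, 980 and 1088 with slide or scan day as a term, 1930 with array weights, 1462 of 55681 probes without the filter, 286 of 12448 with Cy5 well above background on all arrays, and, with mouse 10, 19, 7 or 9 left out, 1625, 778, 291 and 301. The cause was not tested. With the mouse number as a replicate block, the interaction tests gave 0 probes for lung and 0 for liver (1015 and 433 at an unadjusted p of 0.05), and the block changed no call. Differences changed sign under at least 1 alternative in 17 of 57 genes, 7 of them under median centring alone. Under median centring Tiparp was at 0.31, Nqo1 0.42, Cdkn1a 0.22, Arntl 0.0211, Npas2 −0.0286, Nfil3 0.15, Ube2c 0.0784, Top2a 0.0472, Zswim1 0.0726, H2-D1 0.0789 and Tapbp 0.21, on a scale where the median of all probes was 0.21. Genes with a higher mean ratio in D3 that moved up by over 1.5 times on it included Ccng1 at 0.55, Sesn1 0.61, Cry2 0.67, Selenbp1 0.68, Osgin1 0.70, Noc2l 0.75, Rbm25 0.75, Lamb1 0.75, Mgmt 0.75, Per1 0.76, Brd7 0.77, Tef 0.79, Trub2 0.80, Zcchc7 0.88, Nop56 0.97, Clk4 0.97 and Ccnl2 1.05. With the slide as a term, Cyp1b1 was at −0.0156, Npas2 −0.0075, Clock −0.10 and Atp4b 0.27. With the glandular covariate, Nqo1 was at 0.0221, Clock −0.0072 and Atp4b 0.0634. Nqo1 was at 0.0221 by loess and 0.0178 by normexp, and Npas2 at −0.009 by normexp. With each mouse left out, differences ranged from −0.56 to 0.98 for Cyp1a1, −0.26 to 0.20 for Cyp1b1, −0.20 to 0.0423 for Tiparp, −0.34 to 0.31 for Nqo1, −0.35 to 0.0013 for Cdkn1a, −0.0184 to 0.18 for Per2, −0.0495 to 0.21 for Nr1d1, −0.12 to 0.11 for Npas2, −0.14 to 0.14 for Clock and −1.58 to 0.64 for Atp4b. The lung and liver counts of 1 and 0 held with each mouse left out. Signal over background limits genes such as Cyp1a1, which few arrays measured.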
